A study of Caenorhabditis elegans with 2 samples.

Results

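CEC-7, a chromodomain protein encoded by Y37D8A.11, was mapped on chromatin and its peaks were examined at 40 genes, nearly all of them known for roles in meiosis, of the nematode Caenorhabditis elegans. The genes were picked by name, with earlier results of these data known: the syp, htp, him, zim, dsb, coh and zhp families, and rec-8, spo-11, msh-5, cosa-1, plk-2, chk-2, lab-1 and air-2. They were 40 of the 19971 protein-coding genes on the nuclear chromosomes, and 1 further name, him-9, matched no symbol in the gene table used here. The gene xpf-1, for which him-9 is known as another name, is kept below among the other genes of the pathway. It had a peak with a score of 473.44, and counting it would give 24 of 41 genes with a peak (58.5%), 6 of them with a peak among the 10% with the highest score. The data came from chromatin immunoprecipitation followed by sequencing (ChIP-seq) with 1 library, for which the antibody was polyclonal, raised in rabbits against CEC-7 and affinity-purified, and the authors' list of 2767 peaks from it. A second library held input DNA, and no file of it was analysed here. Both libraries were numbered replicate 2 and came from whole hermaphrodites of strain fem-2(b245), labelled as germline-containing young adults and grown at 20 degrees Celsius. Both carry fem-2(b245) on chromosome III, a mutation in a sex-determination gene, so no wild-type worms stand beside them. Germ cells and somatic cells were ground together, so a peak cannot be assigned to either, and the tissue label could not be checked against expressed markers in a peak list.

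In meiosis, homologous chromosomes pair, are joined along their length by the synaptonemal complex and exchange DNA at crossovers before they separate. Each worm chromosome pairs through a region near one end, the pairing centre, which is bound by a zinc-finger protein. Breaks made by SPO-11 start recombination, and a small set of conserved factors turns a few of them into crossovers. Several of these genes carry the name him because mutants have a high incidence of males, a sign of lost X chromosomes. A chromodomain often lets its protein recognise histones that carry methyl groups.

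CEC-7 peaks lay at 23 of the 40 meiosis genes (57.5%), against 3478 of the 19931 other protein-coding genes (17.5%). A gene was counted when a peak shared at least 1 bp with its body or with the 500 bp on either side. The peaks are on WormBase WS220 and the gene bodies on WBcel235, 2 builds stated to differ by about 100 bp at most, so every distance below carries that uncertainty. Because peaks were unevenly spread over chromosomes, each meiosis gene was also set against the other protein-coding genes of its own chromosome. Their shares, averaged over the 40 genes, came to 20.2%, which corresponds to 8.08 genes. Genes are not replicates of each other and only 1 library was available, so no test of this difference was made.

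The meiosis genes had the larger share on each of the 5 autosomes. On chromosome IV, 8 of 13 meiosis genes had a peak, against 15.9% of the other protein-coding genes. On chromosome V, where peaks were sparse, the counts were 4 of 8 and 7.96%. Chromosome I had 7 of 13 meiosis genes with a peak, against 29.5% of its other genes. Chromosome II had 2 of 2 against 21.3%, and III had 2 of 3 against 37.1%, both with too few meiosis genes to read a share from. The single meiosis gene on X, him-4, had no peak, and 0.183% of the other X genes had one. Depth is unknown, and a gene without a peak in this list may hold a weaker signal than the caller kept.

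**Figure D1:**
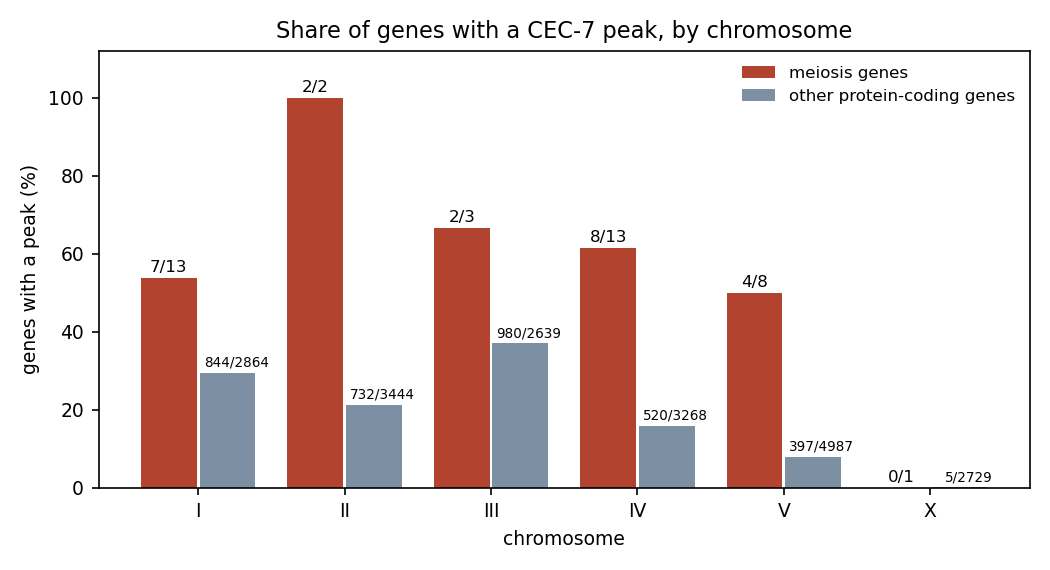
Share of genes with a CEC-7 peak (%) on each chromosome, for meiosis genes (left bars) and other protein-coding genes (right bars), with the counts of genes printed above. On each autosome the meiosis bar is the higher one, and IV (8 of 13 against 15.9%) and V (4 of 8 against 7.96%) have the lowest backgrounds of the autosomes.

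Of the 6 syp genes, which encode the central region of the synaptonemal complex, 3 had a peak. Among other protein-coding genes with the same mix of chromosomes, the share was 22.3%. The peak at syp-5, I 3194469 to 3196918, had a score of 185.48 and ranked 936 of 2767. The score is the authors' own value for each peak, on a scale that the file does not state, and it serves here only to rank peaks within this list, which runs from 50.02 to 1951.83. The peak at syp-1, V 16405861 to 16407436, scored 131.31 and lay wholly within the gene body. At syp-6 the score was 94.40. No peak was listed at syp-2, syp-3 or syp-4. The nearest peak was about 1.01 kb from syp-2, 1.06 kb from syp-3 and 4.78 kb from syp-4. Genes for proteins of the same complex thus fell on both sides of the call.

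The chromosome axis, on which the synaptonemal complex is built, gave 2 of 4 HORMA-domain genes with a peak. Among other genes with the same mix of chromosomes, the share was 19.3%. At htp-3, whose product recruits the other HORMA-domain proteins to the axis, 70.3% of the gene body lay within its higher peak. That peak, I 4827882 to 4830179, scored 181.08. A second peak, I 4824915 to 4826584 with a score of 112.16, lay in the flank and did not reach the htp-3 body. The peak counted for htp-2, IV 6417646 to 6419107 with a score of 68.11, did not reach the gene body and lay about 415 bp from it. No peak was listed at htp-1 or him-3, which lay 15.8 kb and 1.07 kb from the nearest one. The htp-1 and htp-2 products are nearly identical, and how reads matching both genes were placed is not given in the sources used here, so the calls for this pair are uncertain.

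Cohesin holds sister chromatids together, and its kleisin subunit differs between meiosis and mitosis. All 3 meiotic kleisin genes had a peak within the gene body. The highest score was 160.0 at rec-8 (IV 13350377 to 13352334), which had no other protein-coding gene at its peak. The scores were 84.66 at coh-3 (V 14458450 to 14460052) and 52.35 at coh-4 (V 4173665 to 4175077). The score at coh-4 was close to the lowest in the list. COH-3 and COH-4 are closely related proteins, so reads may be shared between these genes too. No peak was listed at him-1, which encodes the SMC1 subunit used by cohesins in general, and the nearest was 6.67 kb away. With him-1, 3 of 4 cohesin genes had a peak, against 15.3% of other genes with the same mix of chromosomes.

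The 4 zinc-finger genes of the pairing centres, zim-1, zim-2, zim-3 and him-8, lie side by side on chromosome IV with 0 other protein-coding genes between them. This cluster held 1 peak, IV 10558535 to 10560790, with a score of 158.69. It covered 76.5% of the body of zim-3, whose product acts on chromosomes I and IV, and 92.0% of the peak lay in that body. The same peak came to about 310 bp from zim-2, whose product acts on chromosome V, and so counts for zim-2 without reaching its body. It stayed 3.02 kb from zim-1, which acts on II and III, and 1.11 kb from him-8, which acts on X. Of the 10 protein-coding genes around the cluster, 5 on each side, 0 had a peak. Counted as 1 locus, the cluster left 37 loci, of which 22 had a peak.

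Among the genes for making double-strand breaks, 4 of 6 had a peak, against 14.2% of other genes with the same mix of chromosomes. The highest score was at him-17, which encodes a chromatin-associated THAP-domain protein needed for break formation. Its peak, V 13176753 to 13180644, scored 496.48, ranked 10 among the 291 peaks of chromosome V and covered 98.8% of the gene body. Of the other genes with a peak on V, 94.7% had a lower score. At spo-11, the gene for the enzyme that cuts the DNA, the peak at IV 11119874 to 11123797 scored 149.0. It covered 38.4% of the gene body, and 16.9% of the peak lay there.

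At dsb-2, which promotes breaks together with its paralog dsb-1, the peak at II 14411255 to 14413293 scored 121.15 and covered 85.8% of the body. The peak counted for dsb-1, IV 12405324 to 12408445 with a score of 347.07, lay about 480 bp outside the body and touched the window of another gene. This is within the uncertainty of the builds at the 500 bp limit. No peak was listed at dsb-3 or at him-5, a gene needed for breaks on X. The nearest peaks were 11.8 kb from dsb-3 and 52.7 kb from him-5.

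**Figure D2:**
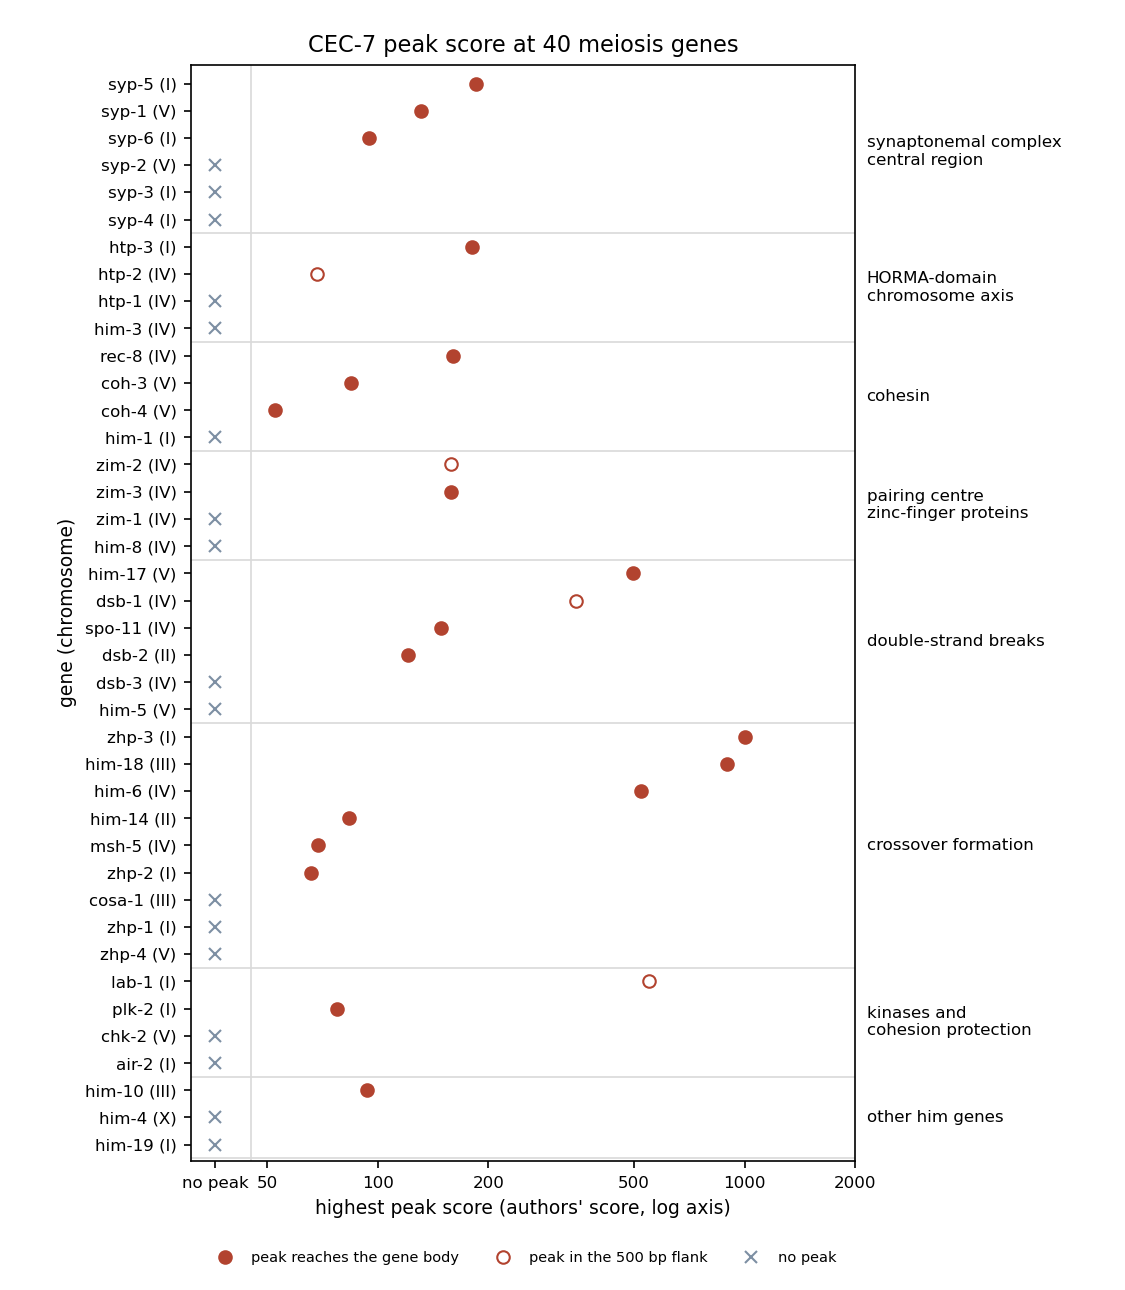
Highest CEC-7 peak score (authors' score, log axis) at each of the 40 meiosis genes, grouped by role, with the chromosome in parentheses. Filled circles mark peaks that reach the gene body, open circles peaks in the 500 bp flank and crosses genes with no peak. The scores run from 52.35 at coh-4 to 1000.39 at zhp-3, and the 17 genes without a peak are spread over every role.

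Crossover genes showed the widest range of scores, with 6 of 9 having a peak. Among other genes with the same mix of chromosomes, the share was 24.9%. At him-6, the worm BLM helicase, the peak at IV 12491114 to 12495425 scored 520.46, ranked 17 among 434 peaks on IV and covered 92.8% of the body. Nearly all of this peak, 97.1%, lay within him-6. At zhp-3, a RING-finger gene needed for crossovers, the score was 1000.39, rank 25 of all 2767 peaks. This peak, I 8524868 to 8531316, covered 98.7% of zhp-3, but it was 6449 bp wide, touched the windows of 4 protein-coding genes, and 30.1% of it lay in zhp-3.

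The score of 894.99 counted for him-18, the worm SLX4 nuclease scaffold, belonged to a peak at III 4715147 to 4720571 that shared 42 bp with the him-18 body. This overlap is smaller than the offset between the builds, and the peak spans the neighbouring gene emb-5. A second peak, III 4712089 to 4714901, with a score of 193.3, covered most of the him-18 body. The other genes had low scores. MSH-5 and HIM-14 form the dimer that marks crossover sites, and their genes had scores of 68.68 at msh-5 (IV 13157817 to 13160949) and 83.22 at him-14 (II 7065726 to 7067852).

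At zhp-2, a relative of zhp-3 that lies 42.3 kb from it on chromosome I, the score was 65.75. The list held no peak at zhp-1, zhp-4 or cosa-1, which encodes a cyclin-like protein of crossover sites. The nearest peaks were 1.45 kb from zhp-1, 2.06 kb from zhp-4 and 1.81 kb from cosa-1. The 4 zhp genes therefore ran from no listed peak to one of the highest scores in the list.

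Of the kinases and cohesion-protection genes, 2 of 4 had a peak, against 24.1% of other genes with the same mix of chromosomes. At plk-2, the Polo-like kinase recruited to pairing centres, a peak of low score (77.28, I 2755505 to 2758419) covered 100% of the body. The peak counted for lab-1, which protects cohesion on the long arms of chromosomes, scored 548.39 (I 9658160 to 9664700). It lay about 137 bp outside lab-1 and spread over 6541 bp with the windows of 3 other protein-coding genes. The list also lacked a peak at air-2, the Aurora B kinase gene, and at chk-2, a kinase that starts meiotic prophase events. The nearest peaks were 20.3 kb from air-2 and 170 kb from chk-2.

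The remaining him genes have broader or less defined functions. At him-10, a kinetochore gene, the peak at III 5803639 to 5805100 scored 93.18 and covered 78.9% of the body. No peak was listed at him-19, 24.3 kb from the nearest, or at him-4, which encodes the extracellular matrix protein hemicentin and not a chromosome protein. Without him-4 and him-10, the share of meiosis genes with a peak was 57.9%.

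The overlap itself varied among the 23 genes. In 19 the peak reached the gene body, and in 4 (dsb-1, htp-2, lab-1 and zim-2) it lay in the flank only. At the limit of the window, the farthest peaks counted were about 480 bp (dsb-1) and 415 bp (htp-2) from the body, and the nearest peak not counted was about 1012 bp from syp-2. At least 50% of the body lay within peaks at 12 of the 40 meiosis genes (30%), against 9.46% of other protein-coding genes and 10.5% with the chromosomes weighted. In 8 genes the peak lay wholly inside the body. The gene table used here gives no strand, so which end of a gene a peak lay at was not analysed.

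The highest peak was shared with another protein-coding gene at 15 of the 23 genes and not at the other 8, which were syp-1, syp-5, syp-6, rec-8, coh-3, coh-4, msh-5 and plk-2. Peaks among the 10% with the highest score, 442.75 or more, were counted at 5 of 40 meiosis genes (12.5%), against 2.97% of other genes and 3.06% with the chromosomes weighted. Of these 5, him-17 and him-6 held most of their peak within the body, whereas zhp-3, him-18 and lab-1 did not. Their direct neighbours shared the peak in each case: cni-1 beside him-17, sru-20 beside him-6, rfgp-1 and gpa-15 beside zhp-3, emb-5 beside him-18, and asfl-1 beside lab-1.

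**Figure D3:**
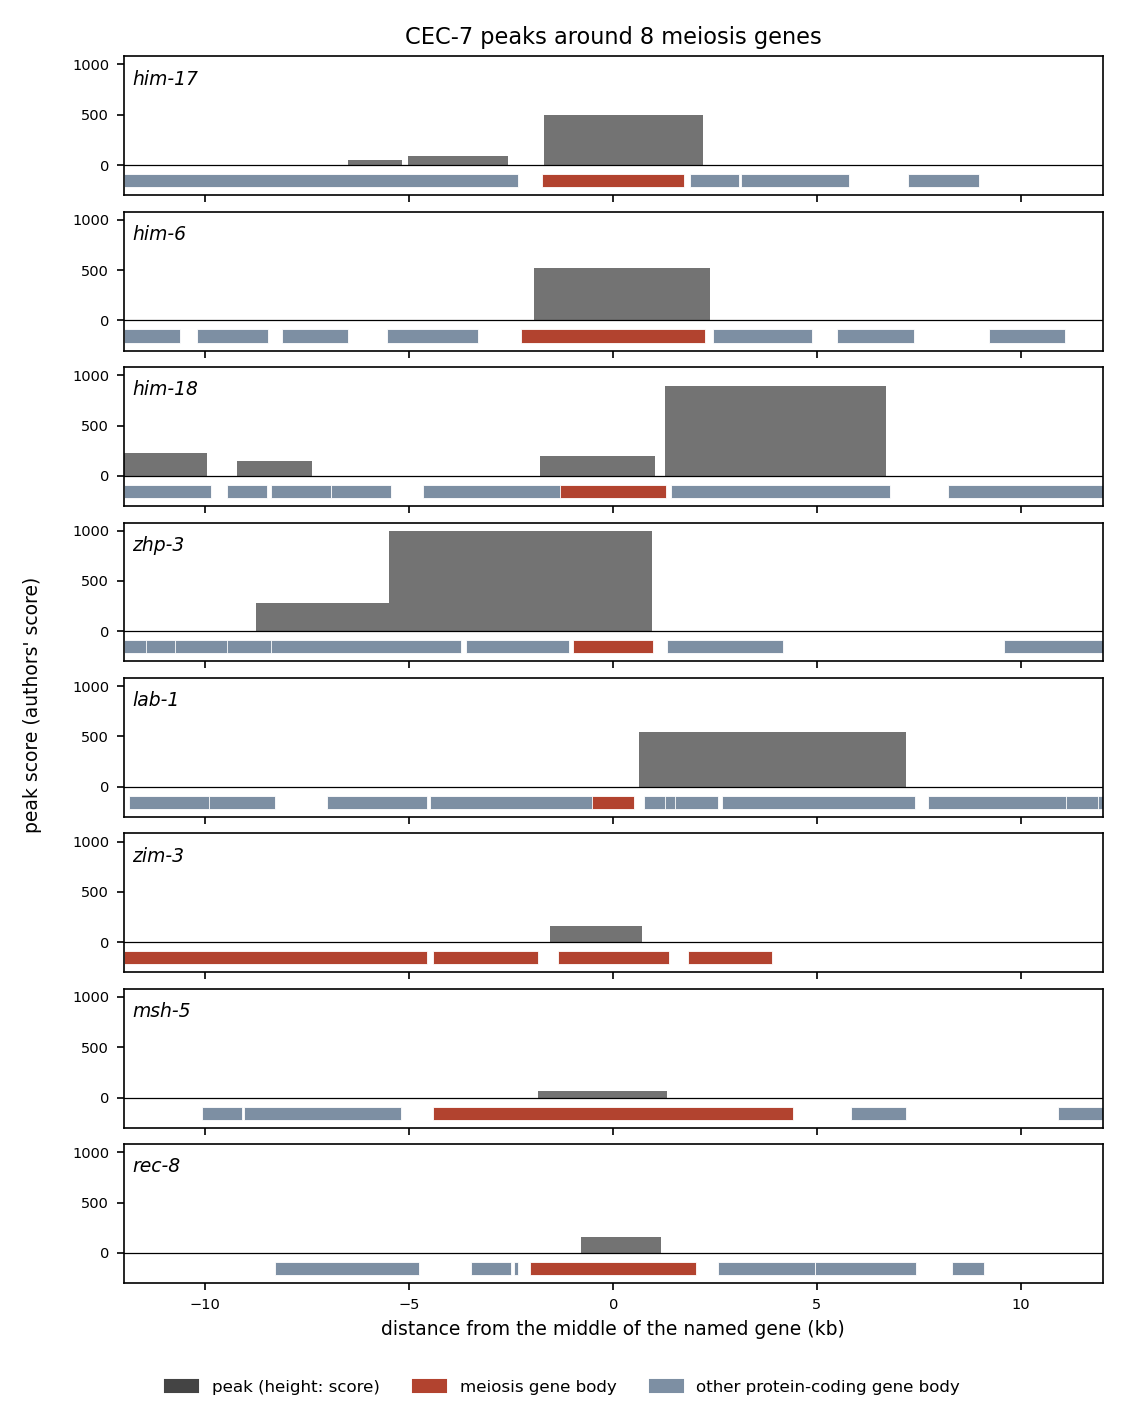
CEC-7 peaks (grey, height is the authors' score) around 8 meiosis genes, drawn against the distance in kb from the middle of the named gene, with meiosis gene bodies in red and other protein-coding gene bodies in blue below. Peaks and genes come from builds that differ by about 100 bp. The peaks at him-17 (496.48) and him-6 (520.46) sit on the gene body, whereas the highest peaks counted for him-18 (894.99) and lab-1 (548.39) sit on neighbouring genes.

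Among genes with a peak, taken over all chromosomes together, the meiosis genes had the lower median score. The median of the highest score was 149 over 23 meiosis genes (quartiles 83.9 and 266) and 177 over the 3478 other genes with a peak (quartiles 96.1 and 345). Scores under 100 made up 39.1% of the meiosis genes with a peak and 26.6% of the others. Scores over 300 made up 26.1% of the meiosis genes and 30.7% of the others. The medians of 149 and 177 were not matched by chromosome. Of the 23 meiosis genes, 8 lay on IV and 4 on V. The median of the other genes with a peak was 137 on IV and 127 on V. It was 177 on I, 197 on II, 215 on III and 128 on X. Within their own chromosomes, 13 meiosis genes lay above the median of the other genes with a peak and 10 below it. Of the 13, htp-3, syp-5 and syp-1 lay close to it, above 50.6%, 51.4% and 51.9% of those other genes. The closest below was dsb-2, above 31.3%. The same peak counted for both zim-2 and zim-3. Peaks in the flank only were counted for dsb-1, lab-1 and zim-2 above the median and for htp-2 below it. At him-18, also above, the peak shared 42 bp with the body. The 22 different peaks behind these scores had a median width of 2277 bp, from 1413 to 6541 bp, and the highest peaks at other genes had a median width of 2250 bp. The difference in score was not tested.

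**Figure D4:**
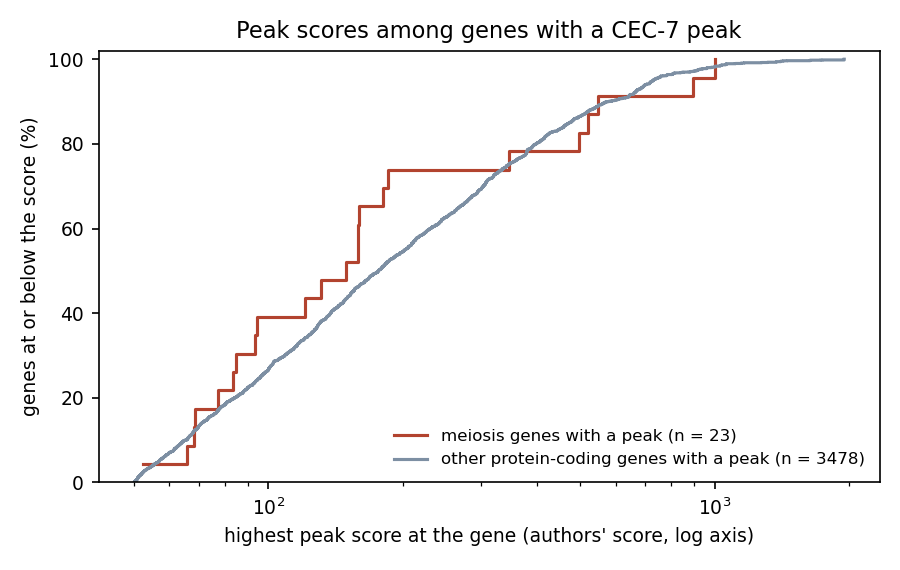
Cumulative share of genes (%) by highest peak score (authors' score, log axis), for the 23 meiosis genes with a peak and the 3478 other protein-coding genes with a peak. The meiosis curve is the higher one at a score of 100 (39.1% of genes below it against 26.6%) and at the medians of 149 and 177. The curves cross at higher scores, as 442.75 or more was reached by 5 of the 23 meiosis genes and 591 of the 3478 others.

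The share with a peak rose with gene length among other protein-coding genes, but showed no steady rise among the few meiosis genes. Among the other genes it was 9.77% under 1 kb, 13.1% from 1 to 2 kb, 19.3% from 2 to 4 kb, 25.7% from 4 to 8 kb and 32.2% at 8 kb or more. A longer gene offers more sequence to overlap, but the reason for the rise was not tested. The median length was 2594 bp over the 40 meiosis genes and 2005 bp over the others. Of the meiosis genes, 8 of 13 between 1 and 2 kb had a peak, 9 of 14 between 2 and 4 kb and 5 of 9 between 4 and 8 kb. The single meiosis gene under 1 kb had none, and at 8 kb or more 1 of 3 had a peak, close to the share of the others. Set against genes of the same chromosome and the same length class, the share of the others was 22.0%, or 8.80 genes, against the 23 found.

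The genes next to the meiosis genes were counted in the same way, without a test. Of the 74 protein-coding genes directly next to them, 32 (43.2%) had a peak, but 16 of these had it only from a peak already counted for a meiosis gene. The other 16, or 21.6% of the 74, had a peak that touched no meiosis gene. Over the 5 neighbours on each side, 105 of 370 genes (28.4%) had a peak, and 85 (23.0%) had one that touched no meiosis gene. Local surroundings differed widely: at syp-3 and zhp-1, which had no peak, 8 of the 10 genes around each had one, whereas at msh-5 and syp-1, which had a peak, 0 of 10 did.

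Peaks were also frequent at other genes of the pathway. Of 100 further genes with roles in cohesion, synapsis, recombination, checkpoints, condensation and the meiotic divisions, 70 (70.0%) had a peak, and the share of genes on the same chromosomes was 26.2%. This list too was drawn up with earlier results of these data known. The names pqn-85, dcc-1, atad-5, rad-54, top-3 and mat-2 were also listed but matched no symbol, so they are not among the 100. Many of the 100 genes also act in mitosis, and at a median of 3564 bp they were longer than the 40 meiosis genes. They were also longer than other protein-coding genes (2005 bp), and the 26.2% was not matched for length. Their median highest score was 206.

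Recombination and repair genes had a peak in 22 of 27 cases. The highest were slx-1, a structure-specific nuclease subunit (717.07, I 5176892 to 5184044), and mus-81, another such nuclease (714.04, I 4264976 to 4270341), while brc-2, which loads the RAD-51 recombinase, had none. Condensin genes, grouped with topoisomerase II, had a peak in 7 of 8 cases, against 27.6% of other genes with their mix of chromosomes. The highest were smc-4 (911.79, III 4588113 to 4593917) and top-2, which encodes topoisomerase II (656.43), while hcp-6, a condensin subunit gene, had none.

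Genes of the meiotic divisions had a peak in 18 of 26 cases, against 23.6% of other genes with the same mix of chromosomes. Among the 26, emb-27, a subunit gene of the anaphase-promoting complex (746.63), and mel-11, a myosin phosphatase subunit gene (511.47), scored highest. No peak was listed at csc-1, a partner gene of air-2. Synapsis and nuclear envelope genes had a peak in 9 of 14 cases, against 27.8% of other genes with their mix of chromosomes. The highest scores were 727.24 at zyg-12, whose product links the nuclear envelope to dynein, and 485.21 at cra-1, a gene needed for synapsis. The dynein heavy chain gene, dhc-1, had no peak. Genes of cohesin and its regulators had a peak in 7 of 11 cases, against 20.8% of other genes with their mix of chromosomes. These 7 included scc-2, the cohesin loader gene (643.79), and smc-3, a cohesin subunit gene (286.35). Another kleisin gene, coh-1, on X, had no peak. Checkpoint and kinase genes had the lowest share, 7 of 14, against 29.5% of other genes with their mix of chromosomes. Their highest scores were 555.61 at clk-2, a DNA damage checkpoint gene, and 379.58 at hasp-1, the haspin kinase gene. The cell-cycle kinase gene, cdk-1, had no peak. These groups were not compared with each other by a test. Several of the high scores named for them came from shared peaks. The highest peak touched the windows of 6 protein-coding genes at zyg-12 and 5 at mus-81. It touched 3 at slx-1, smc-4, emb-27 and clk-2, and 2 at top-2 and hasp-1. At mel-11, cra-1, scc-2 and smc-3 it touched 1. How much of each peak lay in the gene body was not measured for the pathway genes.

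**Figure D5:**
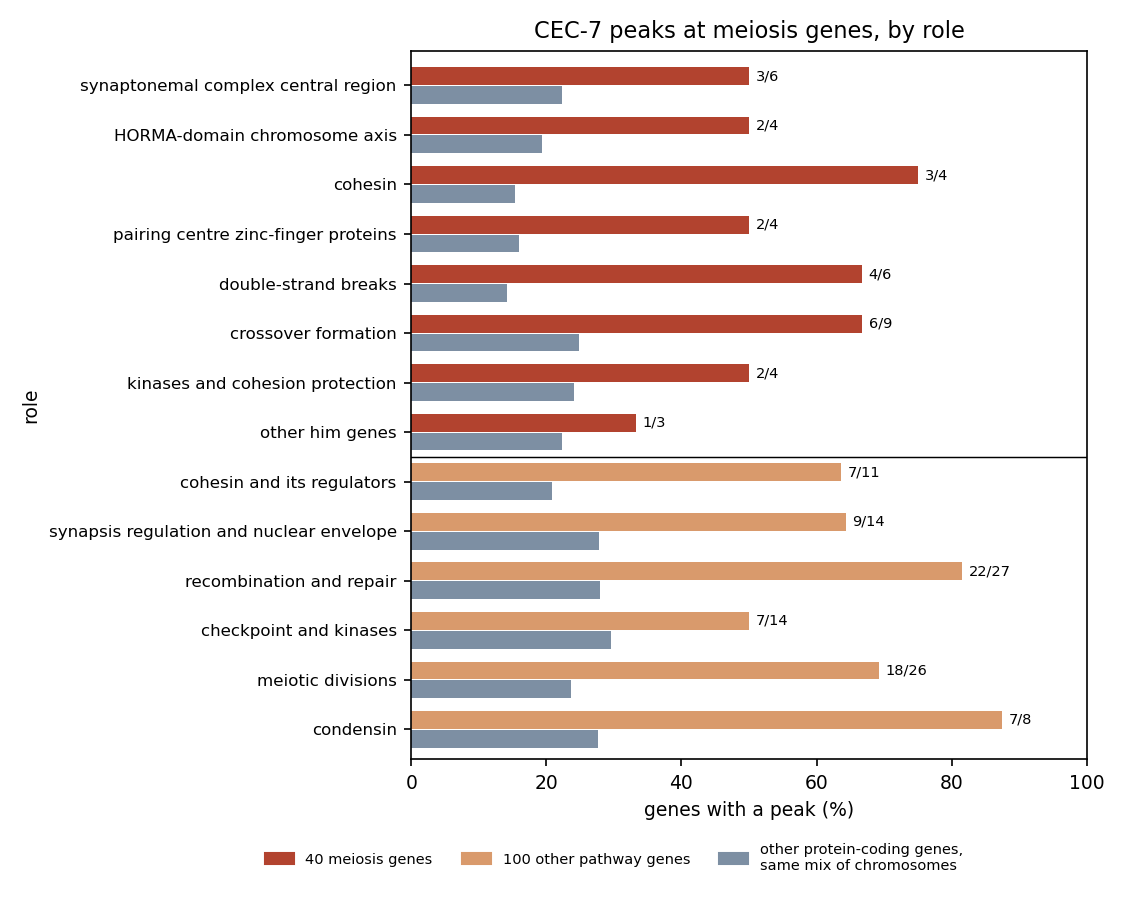
Share of genes with a CEC-7 peak (%) by role, for the 40 meiosis genes (red, upper block) and 100 other pathway genes (orange, lower block), each above the share of other protein-coding genes with the same mix of chromosomes (blue). The red and orange bars carry their counts, from 1 of 3 for the other him genes to 7 of 8 for condensin, and each is longer than the blue bar beneath it.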

How the data were processed

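ChIP-seq with an antibody to CEC-7 was done in whole fem-2(b245) adults. Per the file headers, the authors called the peaks with MACS on WormBase WS220, and the deposited score of each peak is their own value on an unstated scale. Per the submitters' processing notes, BWA is among the tools and ce10 is the build. The sources used here do not give the MACS version, settings, control, pooling or depth.

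Genes were matched by symbol to RefSeq's table for WBcel235, whose coordinates are not printed. A gene was counted with a peak within its body or 500 bp either side (minimum overlap 1 bp), with the highest score taken. Shares are set beside those of other protein-coding genes of the same chromosome. With 1 library no test was made, and the overlap code was tested on simulated data. Named pathway genes are the 2 highest-scoring and the alphabetically first without a peak of each role. The members and lists were chosen with earlier results of these data known. Python 3.11.15, NumPy 2.4.6, SciPy 1.17.1 and matplotlib 3.10.9 were used.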

Additional observations from a re-analysis of the deposited data

How the results depend on the processing

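The count of 23 meiosis genes with a peak was 19 with the gene body alone, 21 with a flank of 400 bp (without dsb-1 and htp-2) and 23 with 600 or 1000 bp. It fell to 12 (30%) when 50% of the body had to lie in peaks and to 13 (32.5%) with the 50% of peaks with the highest score. The other pathway genes gave 53.0% under both, against 70.0%. The share of other genes of the same chromosomes, 20.2%, was 17.3% with the body alone, 19.6%, 20.7% and 22.9% with flanks of 400, 600 and 1000 bp, 10.5% with 50% of the body and 12.4% with the higher-scoring peaks. It was 22.0% within length classes. The next 3 alternatives were chosen after seeing the data. Other genes of the same part of the chromosome, of 3 equal parts, gave 23.4%, and the 5 neighbours on each side gave 28.4%. Counting xpf-1 as him-9 gave 58.5% of meiosis genes with a peak. The ratio of the meiosis share to the weighted share of other genes lay between 2.51 and 2.85 for the windows, cover and peak subset above. Against the 23.4% and 28.4% it would be below that range. The 28.4% includes neighbours whose only peak was one counted for a meiosis gene, and was 23.0% without them. The median score lay between 131 and 185. The gene-start window was not run, for want of strand. No paired analysis was possible because ChIP and input are single libraries, and a file was analysed for ChIP only.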

Other observations

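HIM-18 is known to hold structure-specific nucleases, and peaks were listed at the genes of each of 4 such subunits in the lists. These genes were picked after their values were seen, from a list of recombination and repair genes. In that list 22 of 27 had a peak, against 17.5% of other protein-coding genes on all chromosomes together. The 17.5% is not matched by chromosome and overstates the contrast. The share was higher among other genes with the list's own mix of chromosomes. It was also higher on chromosomes I and II, where the 4 genes lie. Both xpf-1 (9201 bp) and ercc-1 (16108 bp) are in the class of 8 kb or more, in which 32.2% of other genes had a peak. The highest scores were 717.07 at slx-1, 714.04 at mus-81, 473.44 at xpf-1 and 328.90 at ercc-1, and their highest peaks each touched between 3 and 5 protein-coding genes. The peak over most of the him-18 body scored 193.3. No test was made, and whether the peaks belong to these genes or to their neighbours was not tested.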
